A study of Mus musculus with 15 samples.

Results

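The genes described here encode enzymes and transporters of peroxisomal beta-oxidation. The 8 members were taken from the liver and lung count tables by gene name: Acox2, Acox3, Ehhadh, Hsd17b4, Acaa1a, Acaa1b, Abcd2 and Abcd3. They are 8 of the 54532 genes listed in each table, and all 8 passed edgeR's filter on low counts in both tissues. Messenger RNA of wild type male C57BL/6J mice, an inbred laboratory strain, was sequenced from frozen whole tissue. The control diet group (CS) contributed 4 livers and 3 lungs, and the group whose diet held 2% phytosterols (PS), plant sterols that resemble cholesterol, contributed 5 livers and 3 lungs. Each library came from 1 mouse, and 6 of the 9 mice gave both tissues. The labels give an age of 28 weeks for every sample, whereas the feeding times in the study's methods add up to an older age. The question was how the diet altered transcript levels in each tissue, and how these genes differ between lung and liver.

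Peroxisomal beta-oxidation shortens fatty acids that mitochondria handle poorly, such as very-long-chain and branched-chain fatty acids, and it also shortens the side chain of bile acid precursors in the liver. ATP-binding cassette transporters bring the acyl-CoA into the organelle, an acyl-CoA oxidase opens the cycle and releases hydrogen peroxide, a bifunctional protein carries out the hydration and the dehydrogenation, and a thiolase cleaves off the shortened chain. In rodent liver several of these genes are known targets of the fatty acid receptor PPAR alpha.

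Among the members, Abcd2 and Abcd3 encode the transporters, Acox2 and Acox3 the oxidases for branched-chain substrates, Ehhadh and Hsd17b4 the L- and D-specific bifunctional proteins, and Acaa1a and Acaa1b both thiolases. On GRCm38, the build of the files, Acaa1a lies on the plus strand at chr9:119339676-119350299 and Acaa1b on the minus strand at chr9:119148023-119157093. Ehhadh lies at chr16:21761287-21787807, Abcd2 at chr15:91145871-91191799, Abcd3 at chr3:121758774-121815302 and Acox2 at chr14:8225511-8259353, all on the minus strand. Acox3 lies on the plus strand at chr5:35583040-35615352.

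The thiolase genes are near copies, and the opening 60 coding bases of each are shown because the reads of both genes have to be told apart by such differences. They come from coding exon sequence of GENCODE release M21 at chr9:119341515-119341574 (plus strand) and chr9:119156935-119156994 (minus strand), with the base that differs in capitals.
Acaa1a: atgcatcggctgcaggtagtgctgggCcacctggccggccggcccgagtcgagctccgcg
Acaa1b: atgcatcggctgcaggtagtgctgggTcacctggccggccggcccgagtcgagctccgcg
Only 1 of these 60 bases differs. Over the whole coding sequence of 1272 bases 44 bases differ, so 96.5% are identical, and 283 of 1173 windows of 100 coding bases are the same in both genes. Counted over all annotated transcripts, 360 of the 1863 windows of 100 bases of Acaa1b also occur in Acaa1a. A further 125 lie in exon sequence shared with Dlec1 on the opposite strand, which together makes 26.0% of its windows. For Acaa1a the share is 9.72%, from Acaa1b and from Myd88 on the opposite strand, and for Acox3 4.01%, from an antisense transcript listed at 0 counts in every library. The other 5 members share no such window. The strand setting of the counting is not given in the sources used here, so reads of a member and of an overlapping gene on the opposite strand cannot be told apart in these stretches.

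Stretches before the RefSeq start sites of Acaa1a, Acaa1b and Ehhadh are shown next, since Acaa1b and Ehhadh had the largest differences between the tissues and Acaa1a is the near copy of Acaa1b. They are read 5′ to 3′ on the strand of the gene, on GRCm38.p6, at chr9:119341160-119341293, chr9:119157094-119157343 and chr16:21787835-21788084. Capitals mark ATTGG, the CCAAT motif read on the opposite strand.
Acaa1a: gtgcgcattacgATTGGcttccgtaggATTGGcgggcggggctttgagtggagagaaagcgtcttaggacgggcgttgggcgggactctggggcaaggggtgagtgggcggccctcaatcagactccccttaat
Acaa1b: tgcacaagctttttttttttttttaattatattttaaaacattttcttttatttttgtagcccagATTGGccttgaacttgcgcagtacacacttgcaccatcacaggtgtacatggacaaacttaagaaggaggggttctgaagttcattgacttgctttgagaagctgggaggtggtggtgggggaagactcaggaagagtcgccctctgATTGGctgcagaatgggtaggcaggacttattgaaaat
Ehhadh: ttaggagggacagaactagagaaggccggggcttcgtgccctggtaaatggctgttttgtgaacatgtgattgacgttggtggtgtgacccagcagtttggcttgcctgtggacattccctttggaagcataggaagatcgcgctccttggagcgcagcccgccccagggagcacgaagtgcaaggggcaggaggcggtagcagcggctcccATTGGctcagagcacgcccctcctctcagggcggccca
In Acaa1b and in Ehhadh a copy of the motif begins 38 bases before the start site. CCAAT on either strand was found in 4 of the 8 windows available for the members, beside 33.8% of all 32851 promoter windows of 250 bases. The fourth was 1 of the 2 windows of Acox2, with a copy at 36 bases, and the other Acox2 window, both Abcd3 windows and that of Acox3 held none. The motif AGGTCANAGGTCA, a direct repeat spaced by a single base that PPAR alpha is known to bind, was found in none of the 8 windows, which belong to 6 members (Acox2, Acox3, Ehhadh, Acaa1a, Acaa1b and Abcd3), and in 0.0335% of all windows. A single AGGTCA was also absent from the 8 windows and present in 14.0% of all. The G and C content was 41.6% in the window of Acaa1b with 2 CpG sites, against 53.6% and 10 CpG sites in the window of Acaa1a.

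Total counts ranged from 14410117 to 17625179 in the livers and from 17934930 to 19396057 in the lungs. The tissue labels fitted the markers: Alb, encoding albumin, was at 49940 to 85960 CPM (counts scaled to the size of the library) in the livers, and the lungs held Ager, a marker of type I alveolar cells, at 1735 to 2624 CPM. Some libraries stood apart. Liver CS replicate 2 and liver PS replicate 1 had counts for 15961 and 16207 genes, against 18250 to 19598 in the other 7 livers. Lung CS replicate 1 held Alb at 59.5 CPM, and the other 5 lungs held it at 0.308 to 10.4 CPM. All libraries are of bulk tissue, in which fewer cells of a type and less RNA per cell cannot be told apart.

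Levels of different members were compared as FPKM, which divides by gene length. In the liver the thiolase Acaa1b was the most abundant member, with 741.3 ± 348.0 FPKM (SD, n = 9, both diets). Ehhadh followed with 230.5 ± 253.9 FPKM and Hsd17b4 with 165.6 ± 30.5 FPKM. Acaa1a reached 81.6 ± 10.8 FPKM, the transporter Abcd3 67.7 ± 27.2 FPKM and the oxidase Acox2 57.1 ± 14.7 FPKM. Abcd2 with 2.70 ± 1.31 FPKM and Acox3 with 1.62 ± 0.27 FPKM were the least abundant. Ehhadh ranged from 44.0 to 827.7 FPKM and so overlapped Acaa1b, Hsd17b4, Acaa1a, Abcd3 and Acox2, and the ranges of Acaa1a, Abcd3 and Acox2 overlapped each other. Acox3 has a listed length of 11521 bases, the longest of the members, which lowers its FPKM where shorter transcripts are the ones expressed. The listed lengths of the thiolase genes differ too, with 4414 bases for Acaa1a and 1962 for Acaa1b. The size of their FPKM ratio therefore depends on these lengths.

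The order was different in the lung. Acaa1a with 34.1 ± 5.9 FPKM and Hsd17b4 with 33.5 ± 8.6 FPKM (SD, n = 6, both diets) were the most abundant and overlapped. Abcd3 came next with 15.03 ± 4.38 FPKM, and its range of 10.1 to 20.5 FPKM overlapped no other member. Acaa1b was at 4.86 ± 0.88 FPKM, Acox2 at 4.03 ± 2.03 FPKM, Acox3 at 3.61 ± 0.46 FPKM, Ehhadh at 2.97 ± 0.67 FPKM and Abcd2 at 2.54 ± 0.55 FPKM. The ranges of neighbours in this last group overlapped.

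**Figure D1:**
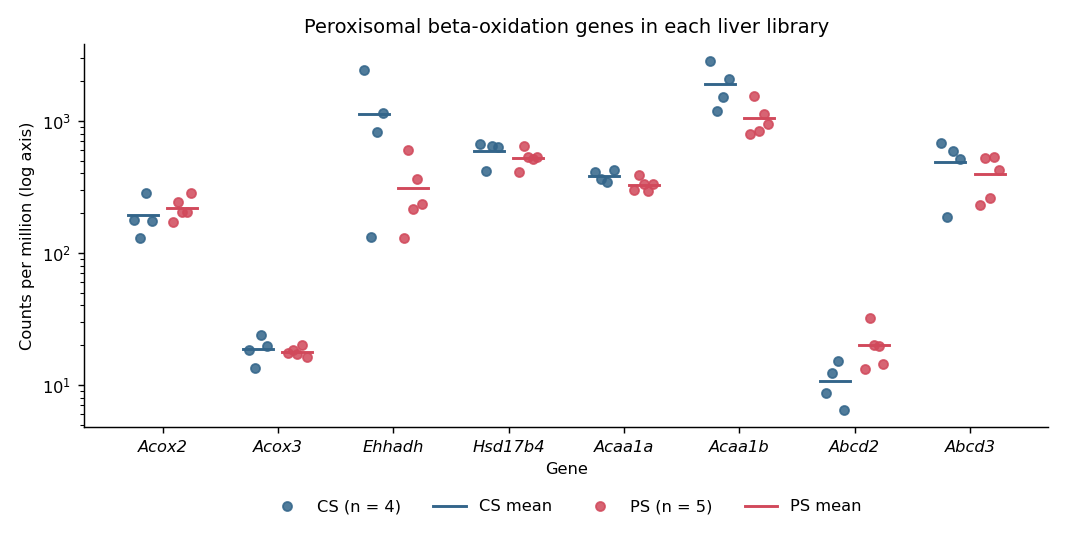
CPM of the 8 members in each liver library (vertical axis, logarithmic), with 4 CS and 5 PS livers side by side for each gene (horizontal axis); points are mice and lines are group means. Ehhadh spreads from 129.5 to 2416 CPM, and no member separates the groups completely.

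In the liver, none of the 8 members passed an adjusted p under 0.05, where 0.00758% of all genes tested did (1 of 13195, in either direction). At an unadjusted p at most 0.05, 2 members were lower in the PS group, Ehhadh and Acaa1b, beside 3.58% of all genes. In the same way 1 member was higher, Abcd2, beside 3.96% of all genes. DESeq2's Wald test also left 0 members past the adjustment and 3 at the unadjusted threshold, and limma on log2 FPKM left 0 and 2. The median log2 fold change was -0.20 over the members and -0.03 over all genes tested, with 6 members below 0 and 2 above.

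Ehhadh, encoding the L-bifunctional protein, varied most. Its CPM were 2416, 131.6, 819.2 and 1154 in the CS livers and 129.5, 597.5, 213.6, 362.4 and 236.1 in the PS livers. CS replicate 2 fell to the level of the lowest PS liver, and the other 3 CS livers lay above all 5 PS livers. The log2 fold change of PS against CS was -1.88 with a standard error of 0.65 (adjusted p = 0.473, edgeR), or 3.67-fold lower, with a 95% interval of -3.29 to -0.46. Among the CS livers the SD of its log2 CPM was 1.78, where the median gene had 0.44 and 0.394% of genes were wider. Among the PS livers the SD was 0.83, and 2.9% of genes were wider.

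The thiolase gene Acaa1b was at 2821, 1185, 1520 and 2086 CPM in the CS livers. The PS livers held 794.7, 1538, 844.0, 1124 and 944.1 CPM. Only PS replicate 2 reached into the CS range, and CS replicate 2 was again the lowest of its group. The log2 fold change was -0.86 ± 0.28 (SE, adjusted p = 0.457), or 1.81-fold lower. Its near copy Acaa1a ranged from 346.3 to 424.9 CPM in the CS livers and from 292.5 to 390.5 CPM in the PS livers, which gave a log2 fold change of -0.22 ± 0.16 (adjusted p = 0.824). The ratio of Acaa1b to Acaa1a in FPKM was 7.38 to 15.6 in the CS livers and 5.71 to 8.86 in the PS livers (exact two-sided permutation p = 0.0556, adjusted p = 0.169 over 4 ratios of members).

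The transporters went apart in their estimates. Abcd2, a transporter of very-long-chain acyl-CoA, was at 8.66, 12.3, 15.2 and 6.47 CPM in the CS livers and at 13.1, 32.2, 20.1, 19.8 and 14.5 CPM in the PS livers. PS replicates 2, 3 and 4 lay above every CS liver, while PS replicates 1 and 5 overlapped CS replicate 3. The log2 fold change was 0.91 ± 0.31 (adjusted p = 0.477), or 1.88-fold higher, from 101 to 567 counts per library. Abcd3, the abundant peroxisomal membrane transporter, held 680.4, 186.7, 587.4 and 513.4 CPM in the CS group and 230.2, 520.5, 262.3, 535.9 and 424.5 CPM in the PS group. These groups overlapped widely, and the log2 fold change was -0.32 ± 0.37 (adjusted p = 0.925).

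Hsd17b4, the D-bifunctional protein gene at chr18:50128201-50196269 on the plus strand, had 665.6, 417.0, 648.5 and 634.6 CPM in the CS livers and 408.3, 640.9, 528.7, 516.4 and 528.3 CPM in the PS livers. Its lowest values were those of the same CS replicate 2 and PS replicate 1, and the log2 fold change was -0.17 ± 0.20 (adjusted p = 0.924). The oxidase genes differed little between the diets relative to their spread. Acox2 was at 129.6 to 286.6 CPM in the CS group and 170.0 to 282.7 CPM in the PS group (0.20 ± 0.24, adjusted p = 0.930), and Acox3 was at 13.4 to 23.9 CPM and 16.4 to 20.2 CPM (-0.07 ± 0.19, adjusted p = 0.977). The 95% intervals of these log2 fold changes ran from -0.34 to 0.73 for Acox2 and from -0.48 to 0.33 for Acox3.

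Without both livers with the fewest detected genes, an alternative chosen after the data were seen, 0 members passed the adjustment and 3 the unadjusted threshold. Over all 13212 genes 48 and 1590 did so, against 1 and 996 of 13195 with all livers. The log2 fold change was then -2.05 for Ehhadh (adjusted p = 0.1), -0.95 for Acaa1b (adjusted p = 0.171) and 1.10 for Abcd2 (adjusted p = 0.213). Liver CS replicate 1, the highest in Ehhadh and Acaa1b, weighed most on their estimates: without it Ehhadh was at -1.2 (adjusted p = 0.968) and Acaa1b at -0.61 (adjusted p = 0.946), and 2 members passed the unadjusted threshold. For Abcd2 the estimates ran from 0.67 to 1.13 over the fits that leave out 1 liver.

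Across the 9 livers Ehhadh, Acaa1b, Hsd17b4 and Abcd3 varied together. On log2(CPM + 0.5), Pearson's r with Ehhadh was 0.93 for Acaa1b (permutation p = 0.000405, adjusted p = 0.00283 over 7 members; Spearman's rho 0.88, p = 0.00308, adjusted p = 0.0105). For Hsd17b4 r was 0.91 (permutation p = 0.00103, adjusted p = 0.00361; rho 0.88, p = 0.00308, adjusted p = 0.0105). For Abcd3 r was 0.87 (permutation p = 0.00213, adjusted p = 0.00497; rho 0.87, p = 0.00451, adjusted p = 0.0105). Without the 2 livers farthest from the median of Ehhadh, CS replicates 1 and 4, these r were 0.79, 0.95 and 0.91. Without the livers with the fewest detected genes, CS replicate 2 and PS replicate 1, they were 0.99, 0.88 and 0.79. Within the diets r was 0.93, 0.95 and 0.96 over the 4 CS livers and 0.97, 0.91 and 0.87 over the 5 PS livers, given without a test. The other 4 members gave r of 0.69 for Acaa1a, 0.60 for Acox3, 0.22 for Acox2 and -0.35 for Abcd2, with adjusted permutation p from 0.0740 to 0.569 and rho of 0.65, 0.63, 0.32 and -0.23 (adjusted permutation p from 0.106 to 0.552). Without CS replicates 1 and 4 these r were 0.34, 0.82, 0.76 and 0.58. Without CS replicate 2 and PS replicate 1 they were 0.75, 0.40, -0.44 and -0.60. CS replicate 2 and PS replicate 1 held the lowest Ehhadh, Hsd17b4 and Abcd3 values, and the part of their low number of detected genes in the relation was not tested. The share of all liver genes with such r was not counted, and genes outside the members reached higher values, such as Smagp with Ehhadh (r = 0.986). The relation was therefore not shown to be particular to these members.

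**Figure D2:**
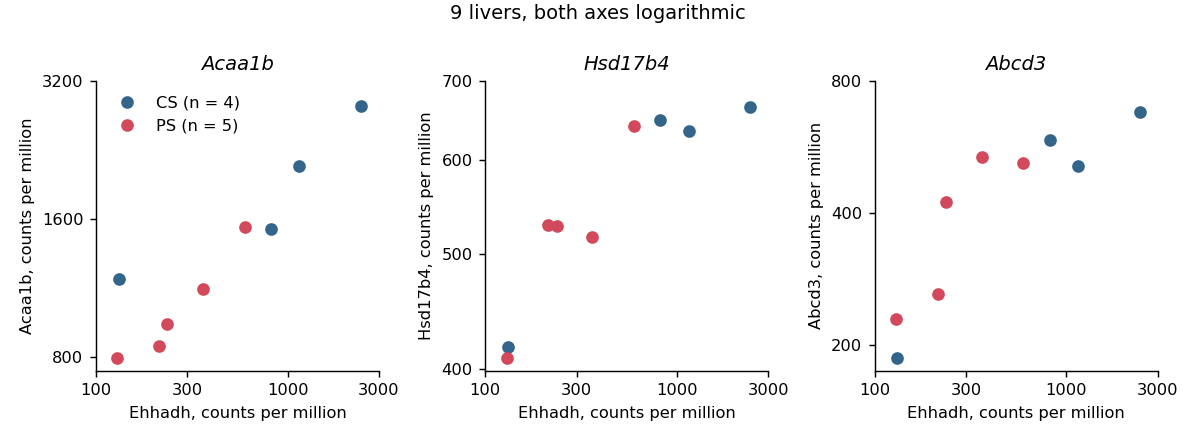
Acaa1b, Hsd17b4 and Abcd3 (vertical axes, CPM) against Ehhadh (horizontal axes, CPM) in 4 CS and 5 PS livers, with both axes logarithmic and 1 point per mouse. Each rises with Ehhadh (r = 0.93, 0.91 and 0.87), and the lowest points of Hsd17b4 and Abcd3 belong to CS replicate 2 and PS replicate 1.

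The genes whose pattern over the 9 livers was most like that of Ehhadh, among 10291 named genes at a mean log2 CPM of at least 1, were Smagp (r = 0.986), Plin2, a lipid droplet coat protein gene (r = 0.984), and Slc16a1, a monocarboxylate transporter gene (r = 0.984). For Acaa1b they were Rab30 (r = 0.988), Nceh1 (r = 0.978) and Fst (r = 0.961). For Abcd3 they were Adck2 (r = 0.993), Hadha, encoding a subunit of the mitochondrial trifunctional protein (r = 0.991), and Atg13 (r = 0.990). These were the 3 highest values of each search and are given as a description.

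Of 25 listed PPAR alpha genes and targets outside the members, 24 were tested in the liver. Their median log2 fold change was -0.57, beside -0.03 for all genes, 20 estimates were below 0 and 4 above, and none passed the adjustment. At an unadjusted p at most 0.05, 11 were lower and 1 higher, beside 3.58% and 3.96% of all genes. Pdk4, an inhibitor kinase of pyruvate dehydrogenase, ranged from 8.83 to 69.2 CPM in the CS group and from 4.33 to 14.7 CPM in the PS mice (log2 fold change -2.20 ± 0.53, adjusted p = 0.230). The fatty acid omega-hydroxylase gene Cyp4a10 was at 2748 to 3080 CPM and 1611 to 2039 CPM, ranges that did not overlap (-0.67 ± 0.16, adjusted p = 0.230).

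Clock genes differed in their estimates between the diets, with none past the adjustment. Of 18 tested, 11 were higher and 4 lower in the PS group at an unadjusted p at most 0.05, beside 3.96% and 3.58% of all genes. Bhlhe40 held 15.8 to 26.3 CPM in the CS group and 46.2 to 103.1 CPM in the PS group (log2 fold change 1.84 ± 0.28, adjusted p = 0.0974). Arntl held 14.0 to 23.2 CPM and 4.02 to 9.66 CPM (-1.57 ± 0.27, adjusted p = 0.0974). Dbp, a clock output gene, was at 0.828 to 26.6 CPM in the CS group and at 28.4 to 112.0 CPM in the PS group. Its highest CS value was that of replicate 2, the liver with the fewest detected genes. The hours of tissue collection are not given in the sources used here, and the part of clock state in the values of Ehhadh and Acaa1b was not tested.

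The other genes of peroxisomes and fatty acid oxidation gave no call past the adjustment in the liver either. Of 36 other genes of peroxisomal lipid metabolism tested, 0 passed the adjustment (median -0.06). At an unadjusted p at most 0.05, 1 was above 0 and 3 were below 0, beside 3.96% and 3.58% of all genes. Among them the membrane protein gene Pxmp4 held 216.0 to 258.0 CPM in the CS livers and 129.8 to 190.2 CPM in the PS livers (log2 fold change -0.71 ± 0.17, adjusted p = 0.230), and Pecr, a peroxisomal enoyl-CoA reductase gene, had 0.57 ± 0.19 (adjusted p = 0.463). None of 16 peroxins, the proteins that build peroxisomes, passed either threshold (median -0.04). Of 17 mitochondrial beta-oxidation genes only Cpt2 did so at the unadjusted one (-0.53 ± 0.16, adjusted p = 0.355; median -0.19). The summed hepatocyte markers ranged from 100600 to 140900 CPM in the CS group and from 116200 to 151000 CPM in the PS group. Macrophage markers summed to 244.1 to 363.2 CPM and 90.7 to 305.4 CPM and endothelial markers to 113.5 to 136.6 CPM and 60.6 to 138.1 CPM. Of the tested estimates 10 of 10 and 9 of 10 were below 0, and 3 and 1 of them at an unadjusted p at most 0.05, beside 3.58% of all genes.

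**Figure D3:**
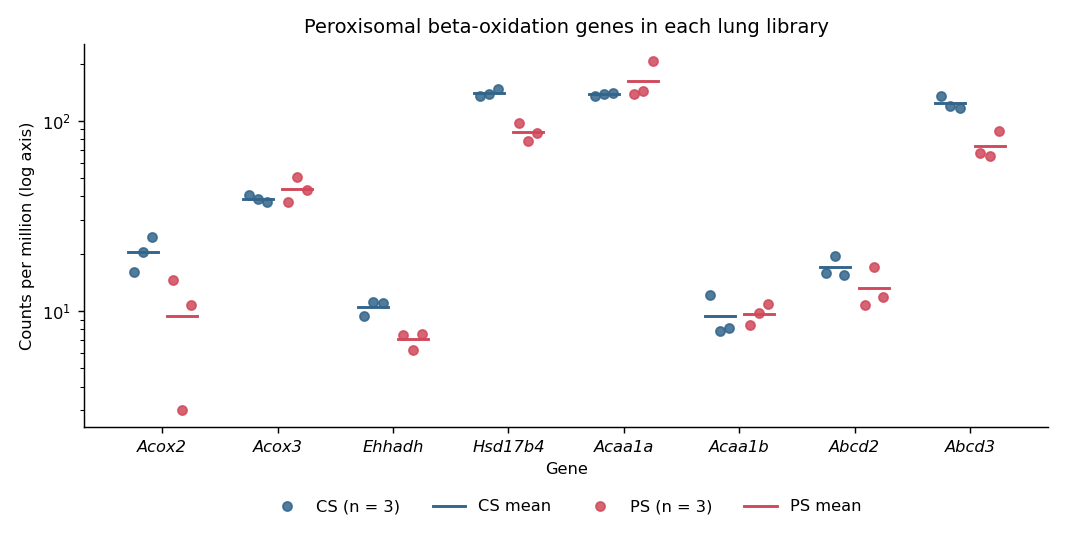
CPM of the 8 members in each lung library (vertical axis, logarithmic), with 3 CS and 3 PS lungs side by side for each gene (horizontal axis); points are mice and lines are group means. Hsd17b4, Abcd3, Ehhadh and Acox2 lie lower in all PS lungs than in any CS lung.

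In the lung, edgeR called 2 of the 8 members past an adjusted p under 0.05, both lower in the PS group, where 4.43% of all 16717 genes tested were. They were the D-bifunctional protein gene Hsd17b4 and the transporter gene Abcd3. At an unadjusted p at most 0.05, 4 members were lower, with Ehhadh and Acox2 added, beside 14.5% of all genes. For the same 4 members the groups did not overlap, beside 18.8% of all genes with every PS lung below every CS lung. The median log2 fold change was -0.46 over the members and 0.01 over all genes.

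Hsd17b4 held 135.3, 138.0 and 146.2 CPM in the CS lungs and 97.3, 78.7 and 86.1 CPM in the PS lungs. It fell in the PS group by 0.68 on the log2 scale (SE 0.14, adjusted p = 0.0297), or 1.6-fold. Abcd3 held 134.4, 119.8 and 116.8 CPM in the CS lungs and 67.9, 65.5 and 88.4 CPM in the PS lungs, and fell by 0.74 (SE 0.16, adjusted p = 0.0326), or 1.67-fold. The PS lungs were clear of the CS lungs in both genes. Both calls rested on all CS libraries and on PS replicate 2: without lung CS replicate 1, 2 or 3 or lung PS replicate 2, 0 members passed the adjustment, and the adjusted p rose to at most 0.114 for Hsd17b4 and 0.111 for Abcd3. Over these 4 fits the log2 fold changes stayed between -0.73 and -0.61 for Hsd17b4 and between -0.79 and -0.66 for Abcd3. The number of calls over all lung genes fell likewise, from 1542 to 23, 26, 0 and 9 without CS replicate 1, 2, 3 or PS replicate 2.

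Ehhadh was at 9.45, 11.1 and 11.0 CPM in the CS lungs and 7.52, 6.25 and 7.56 CPM in the PS lungs, a log2 fold change of -0.57 ± 0.20 (adjusted p = 0.103). These are 112 to 216 counts per library. Lung CS replicate 1, which held liver transcripts, had 187 Ehhadh counts beside 1177 Alb counts. In the liver of the same mouse Ehhadh had 4.84 counts per 100 Alb counts, and at that ratio 56.9 of the 187 counts would accompany the Alb of this lung. The same reckoning gives 66.5 of 241 counts for Acaa1b, 15.7 of 2678 for Hsd17b4 and 16 of 2659 for Abcd3. Without this library the log2 fold change of Ehhadh was -0.67 (adjusted p = 0.157).

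Acox2, the oxidase of bile acid precursors and branched-chain fatty acids, was at 16.1, 20.4 and 24.6 CPM in the CS lungs and at 14.5, 3.01 and 10.8 CPM in the PS lungs. PS replicate 2 was far below the rest, and among the PS lungs only 1.3% of genes had a wider SD of log2 CPM (1.11 against a median of 0.28). The log2 fold change was -1.11 ± 0.47 (adjusted p = 0.151), and DESeq2's Wald test gave an adjusted p of 0.0434. Without PS replicate 2 the log2 fold change was -0.69 (adjusted p = 0.172). The ciliated cell gene Foxj1 was at 118.0, 165.5 and 192.6 CPM in the CS lungs and at 177.3, 48.7 and 114.8 CPM in the PS lungs, in each group with its highest and lowest values in the same libraries as Acox2. The genes most like Acox2 over the 6 lungs, among 13179, were Pon1 (r = 0.999), Ttc39a (r = 0.998) and Cabcoco1 (r = 0.997). The summed airway markers ranged from 45690 to 69750 CPM in the CS group and from 36500 to 70150 CPM in the PS group, with 9 of 10 estimates below 0 and 1 at an unadjusted p at most 0.05. The part of airway tissue in the Acox2 values was not tested.

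The other 4 members had overlapping groups in the lung. Acaa1a was at 134.6 to 139.8 CPM in the CS lungs and at 139.0, 143.0 and 205.3 CPM in the PS lungs (log2 fold change 0.24 ± 0.17, adjusted p = 0.384). Acox3 was at 37.5 to 40.7 CPM and 37.3 to 50.8 CPM (0.17 ± 0.16, adjusted p = 0.501), and Abcd2 at 15.5 to 19.4 CPM and 10.8 to 17.03 CPM (-0.36 ± 0.22, adjusted p = 0.3). Acaa1b was at 7.81 to 12.2 CPM and 8.40 to 10.8 CPM, with its highest value in lung CS replicate 1 (0.04 ± 0.24, adjusted p = 0.923, 95% interval -0.50 to 0.59). Its sign turned to -0.03 with scaling by column totals and to -0.17 with each library's GC content trend removed. Dlec1, which overlaps Acaa1b on the opposite strand, was itself at 9.35 to 14.8 CPM in the CS lungs and 5.42 to 11.97 CPM in the PS lungs, against at most 2.56 CPM in the livers.

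Around the members, 0 of 33 other peroxisomal lipid genes tested in the lung passed the adjustment by edgeR, with 2 higher and 6 lower at an unadjusted p at most 0.05 (median -0.10), beside 15.6% and 14.5% of all genes. Lonp2, a peroxisomal protease gene, had a log2 fold change of -0.56 ± 0.16 (adjusted p = 0.0608) and Abcd4 one of 0.72 ± 0.22 (adjusted p = 0.0695). Of 16 peroxins 1 fell: Pex7, the import receptor that carries thiolase into peroxisomes, held 39.0 to 41.4 CPM in the CS lungs and 19.98 to 24.7 CPM in the PS lungs (-0.88 ± 0.15, adjusted p = 0.0204). Of 17 mitochondrial beta-oxidation genes 3 fell and 1 rose (median -0.44), where 4.43% of all lung genes fell and 4.8% rose. Acadvl, the very-long-chain acyl-CoA dehydrogenase gene, fell by 1.64 (SE 0.31, adjusted p = 0.0255), Etfdh by 1.04 (SE 0.18, adjusted p = 0.0217) and Decr1 by 0.62 (SE 0.14, adjusted p = 0.0388). Etfb, for a subunit of the electron transfer flavoprotein, rose by 1.10 (SE 0.20, adjusted p = 0.0221). The receptor gene Ppara fell from 2.26 to 2.82 CPM in the CS lungs to 0.414 to 0.938 CPM in the PS lungs (-2.0 ± 0.41, adjusted p = 0.0312), on 7 to 52 counts, and was the 1 call among 18 genes of its list (median -0.55, 15 estimates below 0).

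Clock genes and marker genes of cell types also varied in the lungs. Among 18 clock genes 4 rose, Ciart, Nr1d1, Per1 and Nr1d2, and 2 fell, beside the same 4.8% and 4.43% of all genes. Ciart held 3.60 to 5.46 CPM in the CS lungs and 7.34, 28.1 and 50.8 CPM in the PS lungs (log2 fold change 2.62 ± 0.62, adjusted p = 0.0448), and Nr1d1 rose by 1.29 (SE 0.30, adjusted p = 0.0370). The summed alveolar markers were 24690 to 25320 CPM in the CS group and 26840 to 39790 CPM in the PS group, which did not overlap. This difference lay mostly in Sftpc, a surfactant protein gene, at 12880 to 13890 CPM in the CS lungs and 26850, 27050 and 16310 CPM in the PS lungs. The smallest p in the list went to genes with estimates below 0, the surfactant lipid transporter gene Abca3 at 193.7 to 198.4 CPM and 61.9 to 147.5 CPM (-1.0 ± 0.28, adjusted p = 0.0549) and the phosphate transporter gene Slc34a2 at 1048 to 1334 CPM and 690.8 to 841.6 CPM (-0.57 ± 0.18, adjusted p = 0.0756). Of the 12 alveolar markers 7 had estimates above 0 (median 0.09), 3 were higher and 2 lower at an unadjusted p at most 0.05, and none passed the adjustment. Heart muscle markers summed to 220.2 to 339.0 CPM and 46.6 to 613.6 CPM, and adipocyte markers to 335.9 to 655.4 CPM and 336.5 to 622.1 CPM. Macrophage markers summed to 5815 to 6909 CPM and 3967 to 6250 CPM, endothelial markers to 3335 to 4142 CPM and 3298 to 4119 CPM, and hepatocyte markers to 11.1 to 171.1 CPM and 18.5 to 28.0 CPM. Of the tested macrophage markers 7 of 10 had estimates above 0 (median 0.42), with 4 higher and 1 lower at an unadjusted p at most 0.05. Endothelial markers were divided, 5 above 0 and 5 below (median -0.01), with 2 higher and 1 lower at that threshold. Adipocyte markers had 7 of 10 estimates below 0 (median -0.96) with 1 higher, heart muscle markers 6 of 10 (median -0.34) with 2 lower, and hepatocyte markers 6 of 6 (median -1.62) with none. Past the adjustment the macrophage gene Adgre1 and the endothelial gene Kdr fell and the adipocyte gene Lipe rose. Every call in these lists was lost without lung CS replicate 3, where 0 of 17190 genes passed the adjustment by edgeR and 3890 the unadjusted threshold. The part of these tissues in the values of Hsd17b4 and Abcd3 was not tested.

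Lung against liver was the largest contrast of these genes. With all 15 libraries scaled together, 7 of the 8 members passed an adjusted p under 0.05 with lower levels in the lung, where 34.4% of all 17696 genes were. The exception was Acox3. The median log2 difference of lung minus liver was -3.66 over the members and 0.17 over all genes. Within the CS mice 6 members were lower in the lung (30.0% of all genes), and within the PS mice 7 were (30.7% of all genes). The member that differed between these counts was Abcd2. The count in the CS mice was 7 without liver CS replicate 2 or 4 or liver PS replicate 2, without both livers with the fewest detected genes, and over the 6 mice with both tissues, with or without a block by mouse. With column totals it was also 7, of which 1 was higher and 6 lower, and it was 8 in each diet with the trend in gene length or GC content removed.

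**Figure D4:**
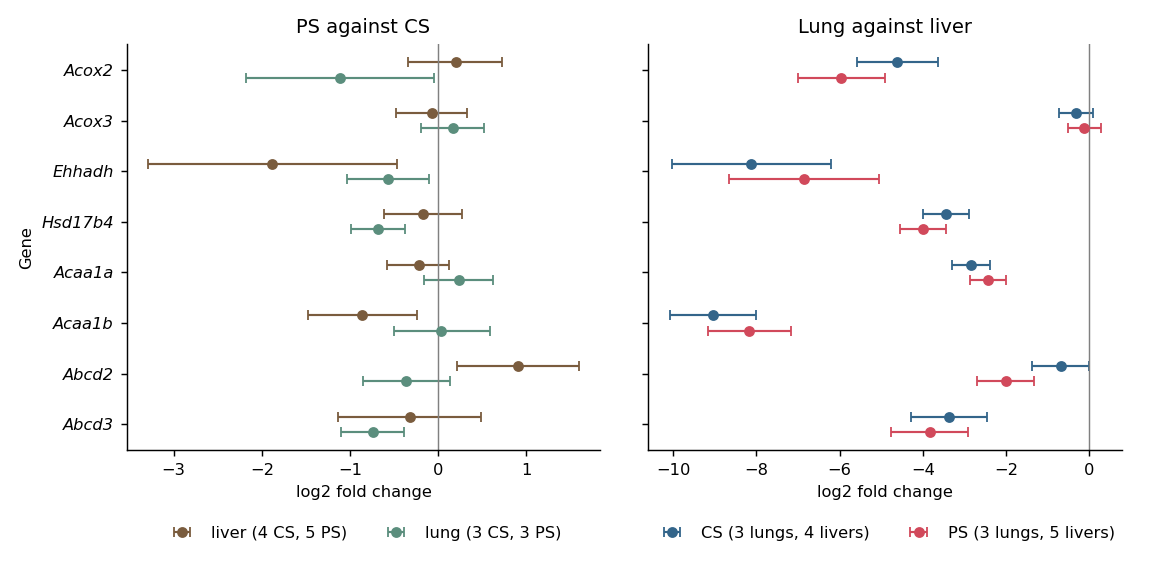
Log2 fold changes of the 8 members with 95% intervals (horizontal axes): left, PS against CS in liver and lung; right, lung against liver within each diet. On the left the intervals of Hsd17b4, Abcd3, Ehhadh and Acox2 in the lung and of Ehhadh and Acaa1b in the liver lie below 0 and that of Abcd2 in the liver above it, of which only lung Hsd17b4 and Abcd3 passed the adjustment; on the right all members except Acox3 and, in the CS mice, Abcd2 lie far below 0.

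Members that act at the same step of the pathway differed between the tissues by unlike amounts. The thiolase gene Acaa1b was at 2794 ± 1085 CPM in the CS livers and 5.32 ± 1.39 CPM in the CS lungs on the joint scale (SD, n = 4 and 3). Its log2 difference over both diets was -8.61 ± 0.34 (SE, adjusted p = 8.1e-13), or 390-fold lower in the lung. Acaa1a, the near copy, was at 563.4 ± 64.6 CPM and 78.1 ± 1.4 CPM in these groups, a difference of -2.64 ± 0.15 (adjusted p = 6.06e-11), or 6.24-fold. Ehhadh differed by -7.49 ± 0.62 (adjusted p = 8.98e-09, 179-fold), or by -6.65 (adjusted p = 3.68e-06) in a block by mouse over the 6 mice with both tissues and by -7.07 over these mice without it. The difference was smaller for the D-specific Hsd17b4, at -3.72 ± 0.19 (adjusted p = 1.24e-11, 13.2-fold).

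The oxidases and the transporters divided in the same way. Acox2 was 38.9-fold lower in the lung (-5.28 ± 0.34, adjusted p = 3.11e-10), while Acox3, with 27.6 ± 6.7 CPM in the CS livers and 22.2 ± 1.0 CPM in the CS lungs, differed by -0.22 ± 0.13 (adjusted p = 0.151, 95% interval -0.50 to 0.07). Abcd3 was 12.1-fold lower (-3.60 ± 0.31, adjusted p = 1.26e-08) and Abcd2 2.54-fold lower (-1.35 ± 0.23, adjusted p = 4.36e-05). For Abcd2 the difference was -0.69 ± 0.32 within the CS mice (adjusted p = 0.0683) and -2.01 ± 0.33 within the PS mice (adjusted p = 4.19e-05). The values of Acox3 and Abcd2 turned on the scaling: column totals put the median of all genes at 1.55 and DESeq2's size factors at 0.31, against 0.17 here. With column totals Acox3 was at 1.16 (adjusted p = 1.16e-06) and Abcd2 at 0.03, both still below that median. The other members shifted alike, to -7.23 for Acaa1b, -6.13 for Ehhadh, -3.91 for Acox2, -2.34 for Hsd17b4, -2.23 for Abcd3 and -1.25 for Acaa1a, so the size of every fold between the tissues depended on the scaling. Acox3 was at -1.12 (adjusted p = 3.89e-07) with the trend in gene length removed, -0.61 (adjusted p = 0.000531) with that in GC content removed, and 0.06 among genes with at least 10 counts in every library.

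Ratios within a library do not depend on the scaling between tissues. The ratio of Acaa1b to Acaa1a in FPKM was 5.71 to 15.6 over the 9 livers and 0.119 to 0.204 over the 6 lungs, so Acaa1b was the more abundant thiolase transcript in every liver and Acaa1a in every lung. Within the 6 mice that gave both tissues the log2 ratio was lower in the lung by 5.80 ± 0.42 (SD), in 6 of 6 mice (exact two-sided sign-flip p = 0.0312, the smallest p that 6 mice allow, adjusted p = 0.0312 over 4 ratios). Ehhadh over Hsd17b4 was 0.36 to 4.14 in the livers and 0.0797 to 0.1 in the lungs. Acox2 over Acox3 was 27.7 to 53.7 and 0.185 to 2.04, and Abcd3 over Abcd2 was 11.8 to 71.6 and 3.47 to 7.64. These 3 ratios were also lower in the lung in 6 of 6 mice, with the same exact sign-flip p = 0.0312. Between diets none of the 4 ratios differed at an adjusted p under 0.05 in either tissue, where 3 lungs against 3 cannot give an exact permutation p below 0.1.

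**Figure D5:**
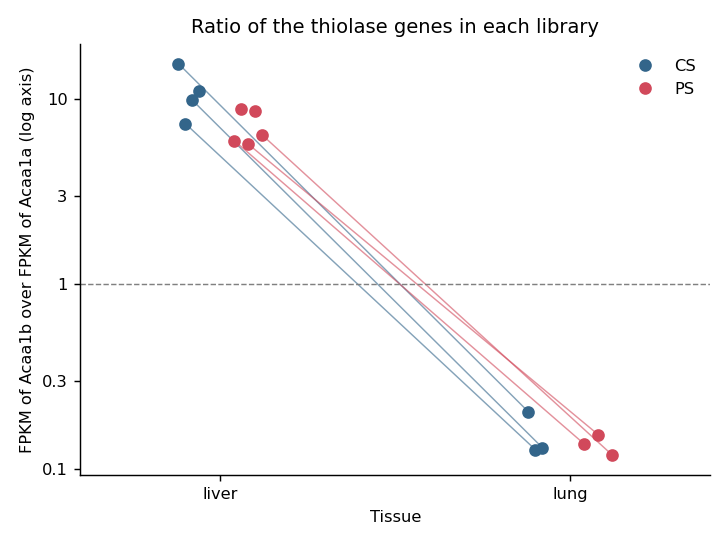
Ratio of Acaa1b to Acaa1a in FPKM (vertical axis, logarithmic) in each liver and lung library; points are mice, lines join both tissues of the same mouse, and the dashed line marks equal levels. All 9 livers lie between 5.71 and 15.6 and all 6 lungs between 0.119 and 0.204.

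The lists around the pathway were lower in the lung as well, where 34.4% of all genes were lower and 42.3% higher at an adjusted p under 0.05. Of 37 other peroxisomal lipid genes tested, 33 were lower and 3 higher at an adjusted p under 0.05 (median -3.64), led by Hao1, the glycolate oxidase gene (-13.54 ± 0.69, adjusted p = 1.1e-10), and Acot12 (-12.78 ± 0.37, adjusted p = 3.04e-13). All but 1 of 16 peroxins were lower (median -2.06), with Pex11a, which promotes peroxisome division, at -4.48 ± 0.21 (adjusted p = 7.2e-12). The 17 mitochondrial genes were all lower (median -3.52), and 23 of 25 PPAR alpha genes and targets were lower and 1 higher (median -6.15). 

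The diet effect itself was compared between the tissues in 1 model. No member passed an adjusted p under 0.05 for the difference by edgeR, where 0.0226% of all genes did in either direction. DESeq2's Wald test also gave 0. At an unadjusted p at most 0.05 edgeR gave 2 members, both lower in the lung relative to the liver, beside 5.4% of all genes, and DESeq2 gave 4, of which 2 were higher and 2 lower, beside 2511 of 30678 genes in either direction. Over the 6 mice with both tissues edgeR gave 1 member at that threshold, which was higher, beside 1588 of 17605 genes in either direction. With a block by mouse it gave 1 higher and 1 lower, beside 979 of 17605. Abcd2, with estimates of 0.91 in the liver and -0.36 in the lung, had a difference of -1.32 ± 0.44 (adjusted p = 0.343), and -0.72 over the 6 mice with both tissues (-0.75 with a block by mouse). Acox2, with 0.20 and -1.11, had one of -1.34 ± 0.54 (adjusted p = 0.404). For the genes called in the lung the difference was -0.54 ± 0.31 for Hsd17b4 (adjusted p = 0.530) and -0.47 ± 0.52 for Abcd3 (adjusted p = 0.765), so a diet effect of theirs confined to the lung was not shown. For Ehhadh it was 1.27 ± 0.88 (adjusted p = 0.600), from 0.58 without liver CS replicate 1 to 2.05 over the 6 mice with both tissues (1.31 with a block by mouse), and for Acaa1b 0.86 ± 0.46 (adjusted p = 0.502). Pex7, with estimates of 0.39 and -0.88, had a difference of -1.30 ± 0.27 (adjusted p = 0.176).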

How the data were processed

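The authors aligned the reads with HISAT2 2.0.5 to mm10 and counted them per gene with featureCounts 1.5.0-p3, per the labels. These raw counts were deposited together with FPKM, for which the authors scaled the counts by gene length and by a library factor set separately in each tissue, so tissues were compared on counts, or on FPKM ratios within a library. Total counts ranged from 14410117 to 19396057. Every column was mapped to a sample.

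Diets were compared within each tissue with edgeR 4.0.16 (R 4.3.3): TMM scaling, filterByExpr at its defaults, and robust quasi-likelihood tests with Benjamini-Hochberg adjustment over all genes tested. Lung against liver and the difference of the diet effects came from 1 model of all 15 libraries. Errors of log2 fold changes are standard errors derived from the F statistic of the quasi-likelihood test. The 95% intervals use the t distribution with the degrees of freedom that each p implies. The fits were also run on simulated counts, with outcomes that are not given here. Alternatives were DESeq2 1.42.0 (size factors, Wald test), column totals, other count filters, removal of length or GC content trends (loess, span 0.3), limma 3.58.1 on log2(FPKM + 1) and log2(FPKM + 0.1) for genes at 0.5 FPKM or more, a replicate block, and leaving out each library. Ratios were tested by exact permutation over mice.

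The members, lists and tests were chosen with earlier results of these data known. Named are the 8 members; per list and contrast up to 4 genes past the adjustment with the largest changes, or else the 2 smallest p; the 3 genes most like a member, for 4 members; and overlapping genes. Alb, Ager, Foxj1 and Dbp are given to describe libraries. A few genes of the lists enter only the counts and medians.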

Additional observations from a re-analysis of the deposited data

Results flagged for a closer look

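Among the 4 CS livers, replicate 2 had the lowest Hsd17b4 value, 417.0 CPM, far from the others at 634.6 to 665.6 CPM. Its gap to the nearest of them was 0.875 of the range of the group. Of 16 groups of liver values checked 1 stood out in this way, and chance alone gives about 1 in 20 groups. The same library had the fewest genes with counts (15961) and the lowest Ehhadh, Abcd3 and Acaa1b values of its group. Without it the log2 fold change of PS against CS by edgeR was -0.31 for Hsd17b4 (adjusted p = 0.436) and -2.25 for Ehhadh (adjusted p = 0.0597).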

How the results depend on the processing

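The count of members past the adjustment was 0 in the liver under every alternative run, and 0 for the difference of the diet effects. In the lung it was 2, or 3 with DESeq2's Wald test, and 0 to 2 when single libraries were left out. Lung against liver gave 7 or 8, all lower in the lung except with column totals, where 1 was higher and 6 lower. Leaving out both livers with the fewest detected genes, chosen after the data were seen, gave 0 in the liver, 7 between the tissues and 0 for the difference. A replicate block gave 0 in the liver, with 1 member (Abcd2) in place of 3 at the unadjusted threshold, and 2 in the lung. Replicate numbers do not pair the mice: deviations of same-numbered samples correlated between -0.358 and -0.0295 in the liver and between -0.00648 and 0.0988 in the lung. The sample titles pair the tissues by mouse, while the deviations of both tissues of a mouse correlated between -0.0463 and 0.115. A replicate block by mouse over the 6 mice with both tissues gave 7 between the tissues and 0 for the difference, as did the same libraries without it.

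Of the log2 fold changes, 4 turned sign under at least 1 alternative. Without liver CS replicate 3, Acox3 in the liver was at 0.06 (range over left-out libraries -0.21 to 0.06). Acaa1b in the lung was at -0.03 with column totals, -0.17 with the GC content trend removed, and from -0.09 to 0.25 with a library left out. Between the tissues Acox3 was at 1.16 and Abcd2 at 0.03 with column totals. That scaling put the median of all genes at 1.55, against 0.17 with TMM, and both genes stayed below that median. Acox3 was at 0.06 with at least 10 counts in every library. The cause of the other sign changes was not tested.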
